A study of Homo sapiens with 20 samples.

Results

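Intergenic m6A regions were described in T24 and T24R2 cells by methylated RNA immunoprecipitation sequencing (MeRIP-seq). They are the regions of the authors' merged peak list on chromosomes 1 to 22 and X whose position lay inside no gene body of the GENCODE 44 annotation on hg38. The position of a region was the median summit of all peaks of the 10 pull-down libraries that overlapped it. Of 43252 regions on these chromosomes, 4201 were intergenic and 39051 lay inside a gene body.

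T24, a human bladder cancer line, is sensitive to cisplatin. T24R2 was made from T24 by serial desensitization to the drug, resists it and was kept in medium that contained it. Both were labelled wild type, grown in RPMI with fetal bovine serum and harvested at day 3, and each line gave 5 pull-down libraries with an anti-m6A antibody and 5 input libraries without antibody, 20 samples in all. The inputs enter only through the authors' peak calling. Each group is a single cell line, and the sources do not state whether the 5 replicates were separate cultures, so p-values measure the spread between these libraries. The lists hold no read counts, so depth is unknown and bladder marker genes could not be checked. A region missing from a list may be RNA that was absent or RNA that was not methylated, and the lists cannot tell these apart.

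N6-methyladenosine (m6A) is placed on nascent RNA by the METTL3 and METTL14 writer complex, mostly at the DRACH motif, where D stands for any base but C, R for a purine and H for any base but G. RNA polymerase II transcribes past the end of a gene before it stops, and it also gives unstable transcripts upstream of promoters, at enhancers and from transposable elements. Such RNAs are usually short-lived, and m6A on some of them is bound by nuclear readers.

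Sequences around the DRACH motif closest to the median summit are shown for line-specific regions that stand in single-copy or nearly single-copy sequence. A line-specific region had a peak in every library of one line and in no library of the other. Capitals mark DRACH, and each stretch is written 5′ to 3′ on the strand of the nearest gene, since the lists carry no strand. The TBX20 stretch crosses the annotated 3′ end of TBX20, so part of it and of its motif lies inside that gene.
AKR1C5P, T24R2-only, chr10:5114999-5115027, minus strand: ttgaggaattcaGGACTtcagtggggaaa
LNPK, T24R2-only, chr2:176003050-176003078, minus strand: tccagttgaggaGGACActtaataccgtt
DYNAPP1, T24R2-only, chr18:54539877-54539905, plus strand: agactaccacaaTGACTgtgggtacttcc
UCA1, T24-only, chr19:15836716-15836744, plus strand: gtcactgcgcagGGACAggacaggactcc
FOXL1, T24-only, chr16:86585165-86585193, plus strand: gcgaggtcacatGGACTtcgacagcatga
TBX20, T24-only, chr7:35202416-35202444, minus strand: acgccatttgtaTGACTcttctaaaaatg

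The intergenic regions were spread over both sides of genes. Within 10 kb of a gene, 1488 regions (35.4%) lay downstream, with the 3′ end of the nearest gene as the closest edge, and 1277 (30.4%) lay upstream of its 5′ end. The other 1436 (34.2%) were more than 10 kb from any gene and are called isolated, and 369 of them were more than 50 kb away. The median distance to the nearest gene was 4842 bases, with an interquartile range of 1097 to 15685 bases. Closest to genes the upstream side held more regions, with 607 within 1 kb upstream against 398 within 1 kb downstream. Between 1 and 10 kb the order turned, with 1090 regions downstream and 670 upstream. The nearest gene was protein-coding for 1704 regions (40.6%), a lncRNA for 1355 (32.3%) and a pseudogene for 895 (21.3%).

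**Figure D1:**
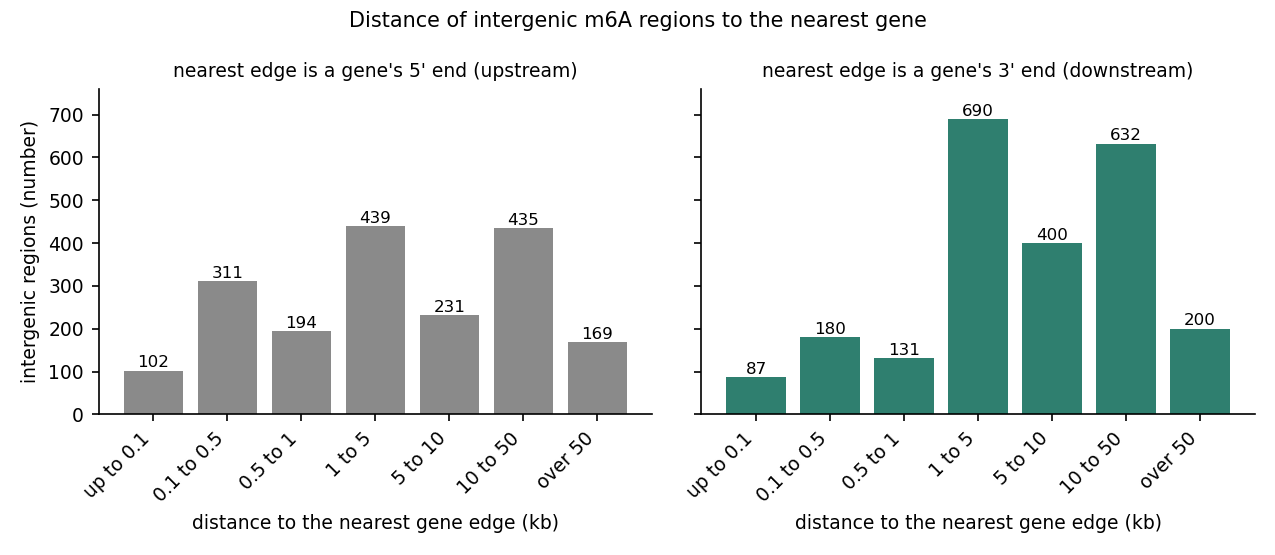
Bars give the number of intergenic regions by distance to the nearest gene edge in kb, for regions upstream (left) and downstream (right) of the nearest gene. Downstream regions peaked at 1 to 5 kb with 690 regions, and the same bin held 439 upstream regions.

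Positions beside genes were not always exclusive. Genes stood within 10 kb on both sides of 1080 regions, and 237 regions classed as downstream were also within 10 kb upstream of another gene. The peaks of 260 regions reached into a gene body although the median summit did not. Distances given for a region are those of its median summit. RefSeq gene bodies, which differ from GENCODE, covered 1201 of the positions (28.6%). These 1201 positions gave 1290 overlaps with RefSeq genes, of which 741 were with lncRNAs and 390 with protein-coding genes. The share inside a RefSeq gene was 54.0% for the 87 regions within 100 bases downstream of a GENCODE gene and 24.8% for those 5 to 10 kb downstream.

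Intergenic regions were narrower and called in fewer libraries than regions at large. Their median width was 220 bases against 280 over all regions. A peak was present in all 10 libraries for 257 regions (6.12%), against 21.9% of all merged regions, and in a single library for 1665 (39.6%) against 27.9%. Isolated regions were called least often, with 3.27% in all 10 libraries and 47.0% in 1. Median GC content of the 101 bases around the summit was 44.6% over the intergenic regions and 49.5% over all regions. It was 41.6% in isolated regions and 61.4% in the 102 regions within 100 bases upstream of a gene.

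DRACH was found on at least 1 strand within 50 nt of the summit in 97.5% of intergenic regions and in 97.2% of all regions. Both shares are near the ceiling, so they could hardly differ. Windows away from peaks were not compared, so these shares do not show that the motif was enriched. Downstream regions had DRACH more often on the strand of the nearest gene (86.7%) than on the other strand (76.7%). In 33307 regions inside genes of 1 strand, these shares were 88.1% and 72.4%. Upstream regions had the reverse order, 76.4% on the strand of the nearest gene and 80.1% on the other. Counting GGAC alone gave 39.2% and 25% downstream, and 32.7% and 33.0% upstream. These shares are descriptions over regions and carry no test.

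More intergenic regions were called in T24R2 libraries than in T24 libraries. The 5 T24 libraries held 1217, 667, 819, 1277 and 772 of them, and the 5 T24R2 libraries held 1623, 1544, 1606, 1910 and 2356. Every T24R2 library lay above every T24 library, and the means were 950.4 ± 277 and 1807.8 ± 337 (SD, n = 5 each, two-sided exact permutation test, p = 0.00794, adjusted p = 0.0159 over 6 measures). This p is the smallest the design allows.

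T24R2 lists were also longer, with 22671 to 33120 peaks against 17203 to 22901 in T24. Taken as a share of all regions a library called, intergenic regions made up 6.47%, 4.50%, 4.49%, 6.23% and 4.41% in T24 and 7.46%, 7.13%, 7.69%, 7.88% and 7.76% in T24R2. The groups did not overlap, and the means of 5.22% ± 1.04 and 7.58% ± 0.299 differed (exact permutation test, n = 5 each, p = 0.00794, adjusted p = 0.0159). When every list was cut to its 17203 peaks of highest −log10 q, the means were 4.90% and 5.86% (exact permutation test, p = 0.0317, adjusted p = 0.0476). The difference of 2.36 percentage points thus became 0.955.

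**Figure D2:**
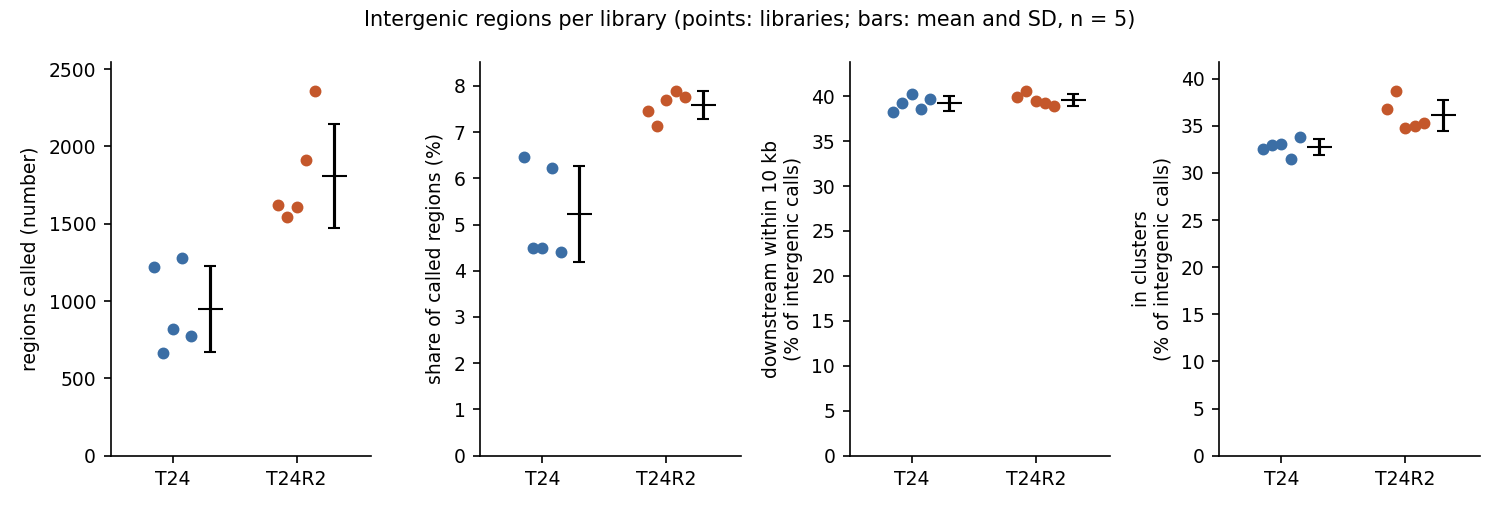
Points are the 5 libraries of each line and bars give the mean and SD. T24R2 libraries lay above all T24 libraries in the number of intergenic regions, in their share of called regions and in the share in clusters, while the downstream shares overlapped. Clusters were drawn from calls of any library, so the share in clusters cannot be read as a difference in clustering.

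The mix of downstream, upstream and isolated regions was similar in both lines. Downstream regions were 38.2%, 39.3%, 40.3%, 38.6% and 39.6% of intergenic calls in the T24 libraries and 39.9%, 40.5%, 39.4%, 39.3% and 38.9% in the T24R2 libraries. The means of 39.2% ± 0.826 and 39.6% ± 0.645 were not told apart (exact permutation test, n = 5 each, p = 0.405, adjusted p = 0.486). This depended on which genes and lists were used. With lists of equal length the downstream share was 40.0% in T24 and 42.1% in T24R2 (exact permutation test, adjusted p = 0.0476), and with distances to the nearest protein-coding gene it was 19.8% and 22.6% (exact permutation test, adjusted p = 0.0119). At a limit of 5 kb the order turned to 30.5% and 29.7% (exact permutation test, adjusted p = 0.159).

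Upstream regions took 29.7% to 36.4% of intergenic calls in T24 libraries and 31.6% to 32.5% in T24R2 libraries (exact permutation test, n = 5 each, p = 0.294, adjusted p = 0.440). Isolated regions took 24.3% to 32.05% and 27.8% to 29.4% (exact permutation test, n = 5 each, p = 0.540). T24 replicates 1 and 4, which had the most intergenic calls in T24, also had the highest isolated shares at 32.05% and 30.1%.

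Line-specific regions were mostly T24R2-only. Of the intergenic regions 254 (6.05%) were T24R2-only, against 3.02% of all merged regions, and 40 (0.952%) were T24-only, against 1.05%. T24R2-only regions were thus 86.4% of the 294 line-specific intergenic regions, and 74.4% of the line-specific regions on the same chromosomes at large. With lists of equal length the counts were 92 T24R2-only (2.19%, against 1.27% of all regions) and 49 T24-only (1.17%, against 1.14%).

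Region by region, no difference passed the adjusted threshold of 0.05, neither among intergenic regions nor among all merged regions (0%). In Fisher's exact test of 5 against 5 libraries the smallest p was 0.00794, and the smallest adjusted p over all merged regions was 0.195. Line-specific regions, which separate the lines fully, had these values, so even full separation did not pass. The lack of regions that passed thus does not show that the lines were alike. At an unadjusted p under 0.05, 507 intergenic regions (12.1%) were called more often in T24R2, against 7.11% of all regions, and 93 (2.21%) more often in T24, against 2.09%. The surplus over all regions in T24R2 was not kept when peaks had to cover 50% of a region (7.07% against 7.05%), and it was smaller at −log10 q of at least 10 (4.38% against 3.85%). Without T24 replicate 2, the number called more often in T24 was 153 (3.64%, against 2.98% of all regions).

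**Figure D3:**
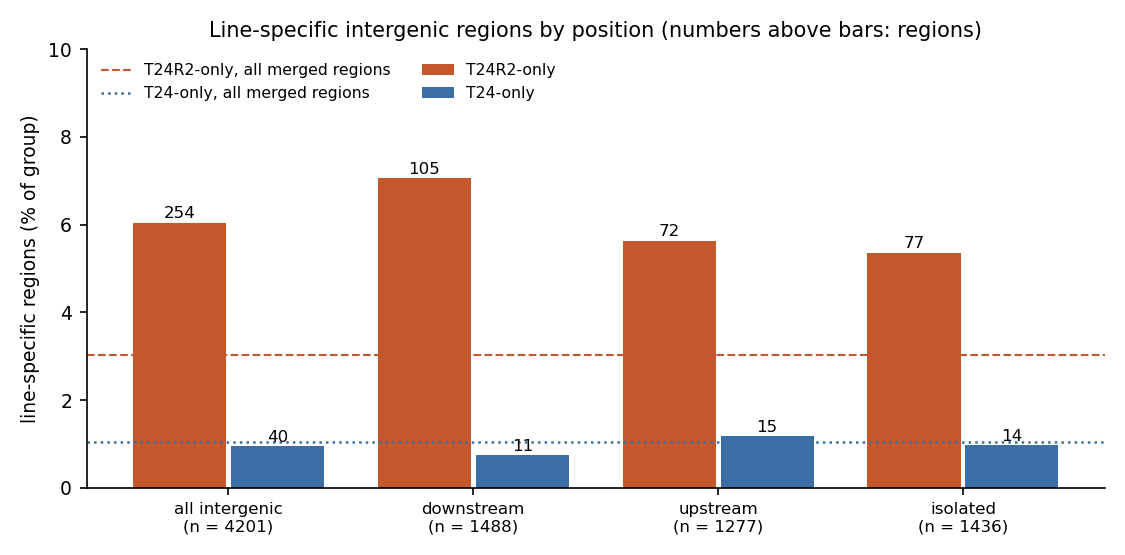
Bars give the percentage of each group of intergenic regions that was T24R2-only or T24-only, with the number of regions above each bar, and lines give the percentage over all merged regions. T24R2-only bars lay above their line in each group drawn, from 5.36% of isolated to 7.06% of downstream regions.

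By position, T24R2-only regions were 105 of 1488 downstream (7.06%), 72 of 1277 upstream (5.64%) and 77 of 1436 isolated regions (5.36%). T24-only regions numbered 11, 15 and 14. None of the 87 regions within 100 bases downstream of a gene was T24R2-only, against 3.02% of all merged regions. At 100 to 500 bases downstream, 14 of 180 were (7.78%). Among 87 regions a share of 3.02% would give few, so no depletion can be read from this. Of the 105 downstream T24R2-only regions, 22 (21.0%, against 25.1% of all downstream regions) followed a gene with an exonic region called in all 10 libraries, 46 (43.8%, against 46.9%) followed a gene without any exonic region, and 9 (8.57%, against 4.37%) followed a gene with an exonic region that was itself T24R2-only, a set that may overlap the first.

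The strongest T24R2-only region lay between AKR1C3, an aldo-keto reductase that acts on steroids and prostaglandins, and the pseudogene AKR1C5P. It spanned chr10:5114664-5115238, 7070 bases past the 3′ end of AKR1C5P. Its fold enrichment of pull-down over input was 22.4, 15.8, 16.6, 15.5 and 21.7 in the 5 T24R2 libraries, and no T24 list had it. It belonged to a cluster of 5 regions in this gap, and all 5 were T24R2-only. Those on the AKR1C3 side lay 2838, 3281 and 6049 bases past the 3′ end of that gene. The farthest of these had fold enrichments of 14.1, 12.2, 12.5, 12.8 and 10.6 in T24R2. No region of the merged list had its position in an exon of AKR1C3. AKR1C genes are close paralogs, so reads of this locus that match several copies would have been dropped as not unique.

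LNPK encodes lunapark, a protein of endoplasmic reticulum junctions. A T24R2-only region at chr2:176002473-176003176 had its median summit 239 bases upstream of LNPK, in the gap to the homeobox gene EVX2. The region reached into LNPK. Fold enrichments were 16.1, 14.8, 16.2, 13.8 and 14.7, a narrow range. LNPK itself had an exonic region that was called in 3 T24 libraries and in all 5 of T24R2. Other strong T24R2-only regions lay 14359 bases downstream of the pseudogene DYNAPP1, 106674 bases upstream of the relaxin family receptor gene RXFP2, 4877 bases upstream of the lncRNA ENSG00000276627 and 52059 bases downstream of the pseudogene PSME2P1. Their fold enrichments in T24R2 ranged from 10.6 to 25.1. The windows of the RXFP2 and PSME2P1 regions were of the multi-copy kind described at the end, with medians of 4058 and 4222 genomic copies per 20-base word. ENSG00000276627 also had an exonic region that was T24R2-only.

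PGBD1, a gene derived from a transposase, was singled out after its values were seen. Past its 3′ end, 4 of the 5 regions of a cluster were T24R2-only, at 3474, 4301 and 5904 bases from PGBD1 and 6104 bases from the next gene. The first had fold enrichments of 7.27, 13.4, 17.7, 11.4 and 14.1 in T24R2. The fifth region was called in 3 T24 and 5 T24R2 libraries. A pair of exonic regions of PGBD1 was called in all 10 libraries. The gene on the far side of the gap, the processed pseudogene ENSG00000273712, was the nearest gene of 2 of the 5 regions, and its own exonic region was T24R2-only with fold enrichments of 4.97, 10.9, 7.49, 6.59 and 12.7. To which of the genes these regions belong cannot be told without strand.

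UCA1 is a lncRNA named for its link to urothelial cancer. The median summit of the strongest T24-only region, chr19:15835718-15837290, lay 352 bases past the annotated end of UCA1, inside the RefSeq gene LOC124900418. The region itself began inside UCA1. Fold enrichments in the T24 libraries were 12.9, 10.8, 14.0, 16.02 and 13.9. The exonic region of UCA1 at chr19:15834752-15835573 likewise had a peak in every T24 library and in no T24R2 library. Since the first region spans the gene end, it does not stand for downstream sequence alone.

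FOXL1, a forkhead transcription factor gene, showed another arrangement. Regions 1707 and 3166 bases past its 3′ end were both T24-only. The nearer had fold enrichments of 10.2, 11.2, 14.2, 13.4 and 9.91 in T24, and the farther had 10.7, 10.6, 19.8, 10.9 and 8.32. The 2 exonic regions of FOXL1 were called in all 10 libraries, so peaks in the exons were present in both lines. One of these, chr16:86578207-86580420, had fold enrichments of 6.54, 8.87, 8.77, 12.7 and 5.63 in T24 and 15.4, 12.3, 19.1, 18.8 and 8.64 in T24R2, which overlapped. One more region past the gene, 4114 bases away, was called in 1 T24R2 library. Another of the strongest T24-only regions lay 10 bases past the end of TBX20, a T-box factor gene of heart development. The others lay 14594 bases upstream of a Y RNA gene and 9362 bases downstream of the lncRNA ENSG00000232121. The window of the Y RNA region was multi-copy, with a median of 127.5 copies. The TBX20 region reached into that gene.

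Of the 8 strongest regions called in all 10 libraries, 6 had their median summit within 1299 bases of a protein-coding gene. All of these 6 but the CCDC188 region reached into the body of that gene. They stood 99 bases upstream of SPIRE2, an actin nucleator gene, 81 bases upstream of SMAD7, an inhibitor of TGF-β signalling, 32 bases upstream of the dynein gene DYNC1LI1 and 1299 bases upstream of CCDC188. On the downstream side they stood 269 bases past the complex I assembly factor gene NDUFAF2 and 409 bases past CD70, a ligand of the TNF family whose RefSeq body holds the position. The NDUFAF2 and CD70 windows were multi-copy, with medians of 3496 and 17356.5 copies. Another of the 8, 2903 bases upstream of the processed pseudogene ENSG00000234338 and inside the RefSeq gene ZNF138, had 29.2, 21.5, 31.6, 28.9 and 22.5 in T24 and 20.6, 18.8, 22.5, 33.7 and 12.5 in T24R2. SMAD7 had fold enrichments of 15.7, 13.3, 17.3, 23.98 and 17.9 in T24 and 13.7, 37.6, 20.7, 28.7 and 30.5 in T24R2, which overlapped. One of the 8 strongest did not overlap between lines. The region upstream of the lncRNA ENSG00000231324 had 12.7, 11.2, 14.0, 14.1 and 13.4 in T24 and 27.0, 19.7, 21.8, 20.7 and 31.9 in T24R2. By percentile within each list, T24R2 lay wholly above T24 in 3.63% of all regions called in all 10 libraries and wholly below in 0.867%.

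Enrichment ranks were compared as percentiles within each list. Over the 257 regions called in every library, all T24R2 percentiles lay above all T24 percentiles for 15 (5.84%), against 3.63% of such regions at large, and below for 2 (0.778%), against 0.867%. The median percentile of a library's intergenic regions was 51.1, 53.9, 53.1, 43.8 and 56.5 in T24 and 51.4, 49.1, 51.5, 45.2 and 47.5 in T24R2. These overlapped. Isolated regions ranked lower, from 42.9 to 53.0 in T24 and from 36.3 to 47.6 in T24R2. The mean of the median percentile was 51.7 in T24 and 48.9 in T24R2, and the order turned to 49.9 and 50.4 at −log10 q of at least 5 and to 51.9 and 55.5 in lists of equal length.

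Clusters were formed by 3 or more regions in the same gap between genes with steps of at most 10 kb. There were 334 clusters with 1354 regions (32.2%), of which 174 had 3 regions, and the median span was 4.67 kb. T24R2 had more calls in 259 clusters and T24 in 66. Regions of 121 clusters were called in T24R2 libraries alone and those of 9 in T24 libraries alone. At least 1 T24R2-only region stood in 83 clusters and at least 1 T24-only region in 10, and no cluster had both kinds. Since calls of any library could form a cluster, these counts are not independent of the lines' calls.

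Of a library's intergenic calls, clusters held 32.5%, 33.0%, 33.1%, 31.5% and 33.8% in T24 and 36.8%, 38.7%, 34.8%, 35.0% and 35.3% in T24R2. The groups did not overlap (means 32.8% ± 0.858 and 36.1% ± 1.62, exact permutation test, n = 5 each, p = 0.00794, adjusted p = 0.0159). The share depends on how clusters were drawn. When only the 1207 regions called in both lines could form clusters, 194 regions did, and they held 12.97% of intergenic calls in T24 and 7.87% in T24R2 (exact permutation test, p = 0.00794, adjusted p = 0.0159). These shares were still taken of all intergenic calls, including calls in regions that could not form such clusters. Of the intergenic regions, 2300 had no T24 call and 694 had no T24R2 call. The turned order thus cannot be read as a difference in clustering. Nor can the first order, since clusters were drawn from calls of any library. Regions of 121 clusters were called in T24R2 libraries alone, against 9 in T24 libraries alone.

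The 6 clusters named went both ways. Of these, 5 were larger than all others, and the sixth was the one with the most library calls among 8 clusters of 8 regions. The largest, chr10:44415458-44455980 between the pseudogenes RPL9P21 and ENSG00000270767, held 13 regions with 31 library calls in T24R2 and 0 in T24. Upstream of RFTN2, a raftlin gene, 10 regions at chr2:197682302-197692852 had 24 calls in T24R2 and 1 in T24. The reverse held between IGKV1OR-2 and BNIP3P4 at chr9:64785011-64808565, with 24 calls in T24 and 2 in T24R2. It also held between ENSG00000238124 and ENSG00000226767 at chr7:65480720-65499543, with 26 and 1. Beside SH3TC2, 11 regions at chr5:148863717-148901179 had 29 calls in T24 and 14 in T24R2. Downstream of the lncRNA ENSG00000239407 on chrX:102907075-102916666, where RefSeq places LINC00630, 8 regions had 26 and 30 calls.

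**Figure D4:**
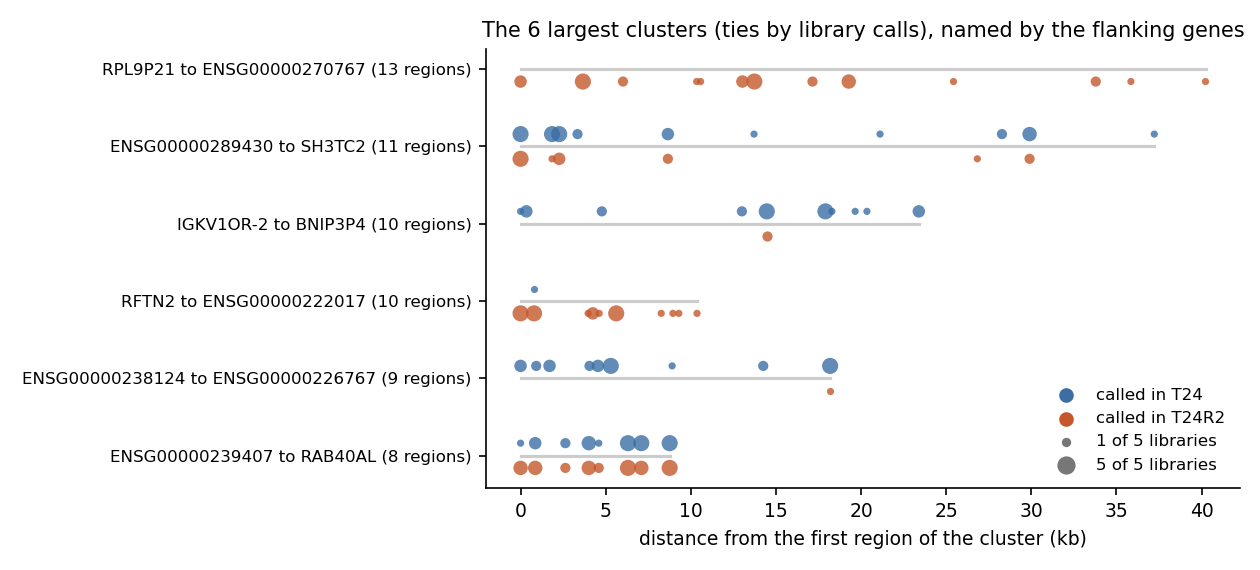
Each line is 1 of the 6 largest clusters, with ties broken by library calls, with distance in kb from its first region. Points above the line (blue) are regions called in T24 and points below (orange) in T24R2, and point area grows with the number of libraries from 1 to 5. The top cluster has points in T24R2 only, and the bottom cluster in both lines.

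Other clusters with several line-specific regions were singled out after their values were seen. Upstream of DIP2C and the lncRNA ENSG00000231601, 4 of 6 regions were T24R2-only. Upstream of the lncRNA SWINGN, 3 of 7 regions were T24R2-only, all inside the RefSeq gene C13orf46, and an exonic region of SWINGN was also T24R2-only. Between ZNF778 and ANKRD11, a chromatin regulator gene, 3 of 7 regions were T24R2-only while exonic regions of both genes were called in all 10 libraries.

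Far from GENCODE genes, regions called in all 10 libraries reached 167849 bases from EZRP1, 149036 bases from HNRNPCP10, 104456 bases past TPBG, which encodes trophoblast glycoprotein, and 102304 bases past RNU6-408P. The EZRP1 region lay inside the RefSeq gene LOC105374020, and the windows of the HNRNPCP10, TPBG and RNU6-408P regions were multi-copy. The one near TPBG had fold enrichments of 14.4, 9.18, 8.47, 12.3 and 7.91 in T24 and 7.98, 8.59, 5.53, 5.65 and 4.45 in T24R2. Those values overlapped slightly. Farthest among line-specific regions were 3 T24R2-only regions of the same cluster, 202669 to 206083 bases past the pseudogene RAP1BP2, and 1 that lay 205814 bases upstream of RNA5SP281. The windows of the RAP1BP2 region at 202669 bases and of the RNA5SP281 region were multi-copy, with medians of 207.5 and 167 copies.

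Members of 5 gene groups were counted by regions within 10 kb past their 3′ ends. Of 508 zinc finger genes, 23 (4.53%) had such a region, against 484 of 19962 protein-coding genes (2.42%). Exonic regions were found in 447 of the zinc finger genes (88.0%) and in 10071 of all protein-coding genes (50.5%). The shares of genes with a downstream region were not adjusted for this. The zinc finger genes had 33 downstream regions, of which 6 were called in all 10 libraries and 2 were T24R2-only, beside ZNF778 and ZNF703. These are 18.2% and 6.06%, against 6.38% and 8.55% of the 643 regions downstream of all protein-coding genes. None was found past 39 HOX genes, 87 histone genes, 20 immediate early genes such as FOS and EGR1, or 22 genes of 3′ end processing and termination. In groups this small, a share of 2.42% would give few such genes or none. Exonic regions were called in 33, 9, 19 and 16 genes of these groups.

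Intergenic windows often held sequence of many copies, a measure chosen after the data were seen. A window was called multi-copy when the median of its 20-base words occurred at least 100 times in hg38 on either strand. This held for 856 intergenic regions (20.4%) and for 7.41% of regions inside gene bodies. The share was 2.80% within 1 kb upstream of a gene, 9.05% within 1 kb downstream, 31.1% in isolated regions and 41.2% in those over 50 kb away. Intergenic sequence at large was not compared. T24R2-only regions were multi-copy in 22.05%, T24-only in 20% and regions called in all 10 libraries in 14.4%. Per library the share was 19.0%, 15.3%, 16.1%, 19.5% and 14.0% in T24 and 19.3%, 17.6%, 17.9%, 19.1% and 19.2% in T24R2, which overlapped (exact permutation test, n = 5 each, p = 0.143).

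**Figure D5:**
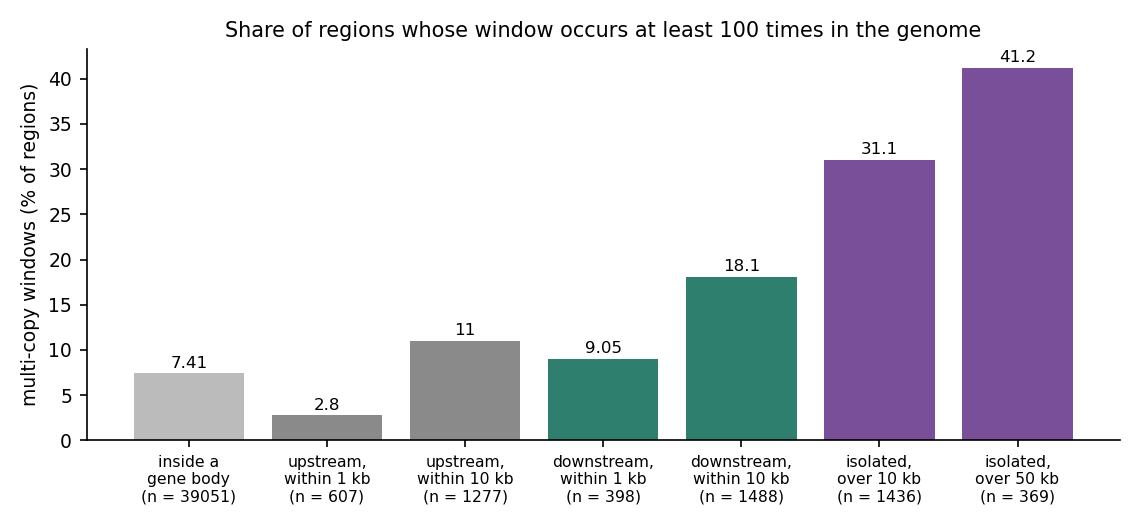
Bars give the percentage of regions with a multi-copy window by position relative to genes. The share was 7.41% inside gene bodies and reached 41.2% more than 50 kb from any gene.

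Reads of such windows counted only where they mapped uniquely, and which copies were transcribed was not tested.

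Libraries shared more intergenic calls within lines than across them. Pairs of T24 libraries shared 45.4% ± 4.23 of the intergenic regions that either had called, and pairs of T24R2 libraries shared 48.1% ± 1.40. Pairs across lines shared 25.3% ± 2.58. Unequal numbers of calls lower this share, and T24 libraries had fewer intergenic calls than T24R2 libraries. How much of the gap follows from this was not tested, and the same shares over all regions are not given here. Each set of pairs reuses the same 10 libraries, so these values carry no test.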

How the data were processed

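MeRIP-seq peak lists of 5 T24 and 5 T24R2 pull-down libraries were analysed. The authors aligned reads to hg38 with STAR 2.7.0 and GENCODE 39, kept uniquely mapped reads without duplicates with SAMtools 1.10 and called peaks per library over input with MACS2 3.0.0a6 (versions per the submitters' processing notes). The deposited lists give a score, the fold enrichment as a ratio of pull-down over input, and −log10 values of the p-value and of the q-value, all as the authors' caller wrote them for a peak; the score and −log10 p were not used. Replicates were not pooled. No list gives counts, so the count tests of the study were not run.

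Positions, classes, calls (1 base of overlap) and clusters were computed in Python 3.11.15 with GENCODE 44, whose gene models differ from release 39, and checked on simulated data. Library values were compared by a two-sided exact permutation test over all 252 assignments, adjusted by the Benjamini-Hochberg method over 6 measures. Regions were compared by Fisher's exact test in SciPy 1.17.1, adjusted over all 43676 merged regions. The members and lists were chosen with earlier results of these data known.

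Regions named were, per line, the 6 line-specific ones whose lowest percentile of fold enrichment over libraries was highest, the 8 such regions called in all 10 libraries, the 6 largest clusters (ties by library calls), the 4 farthest of both kinds, and gene group members with a line-specific region; exceptions are stated. Alternatives were stricter −log10 q, fold enrichment of at least 4, equal list lengths, other gene sets (RefSeq added after seeing the data), other summit, overlap, distance and cluster rules (clusters of regions called in both lines added after seeing the data), a replicate block and the removal of 1 library at a time. A correlation of call deviations between same-numbered libraries, from -0.0225 to 0.0375, did not pair them. Sequences came from hg38, and those of multi-copy windows are not reported here.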

Additional observations from a re-analysis of the deposited data

How the results depend on the processing

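Of 208 alternative values, 171 stayed within the bounds for their kind: a test kept its direction and side of the threshold, a count was within 1.5 times, or a value with no test moved by less than 1 SD. Beside 254 T24R2-only regions there were 165 at −log10 q of at least 5 (3.93%, against 2.32% of all regions). At 10 there were 94 (2.24% against 1.47%). Lists of equal length gave 92 (2.19% against 1.27%) and 50% cover gave 124 (2.95% against 2.25%). The looser rule of 4 of 5 against at most 1 of 5 gave 553 (13.2% against 8.36%). Beside 40 T24-only regions there were 12 at −log10 q of at least 10 (0.286%, against 0.392% of all regions). With 50% cover there were 19 (0.452% against 0.465%) and under the looser rule 113 (2.69% against 2.50%). At an unadjusted p under 0.05, counts higher in T24R2 (507) fell to 184 (4.38% against 3.85% of all regions), 193 (4.59% against 3.03%) and 297 (7.07% against 7.05%) with −log10 q of at least 10, equal lists and 50% cover. Counts higher in T24 (93) were 37 at 10 (0.881% against 0.943%) and 40 with 50% cover (0.952% against 1.19%). They were 59 once regions in RefSeq genes were left out (1.97% against 2.09%). Leaving out 1 library gave 98 (2.33% against 2.24%) to 153 (3.64% against 2.98%). The isolated difference of 1.04 points turned to -0.856 at −log10 q of at least 10, -1.87 with equal lists and -0.693 with 50% cover. The downstream difference of 0.401 passed the threshold as 2.10 with equal lists, 2.14 with protein-coding and lncRNA genes alone, 1.25 at 20 kb and 2.78 for the nearest protein-coding gene, and turned to -0.825 at 5 kb. The cluster difference of 3.34 missed it at 1.77 with protein-coding and lncRNA genes alone. It turned to -5.10 with clusters of regions of both lines alone, a share still taken of all intergenic calls. The difference in median percentile moved from -2.75 to 3.60 with equal lists and to 0.576 at −log10 q of at least 5. The causes were not tested. Without depth, a missing call cannot be told from a shallow library.

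With the replicate block the differences stayed at 857.4 regions, 2.36 points and 3.34 points for number, share and clusters, at p = 0.0625 (exact sign-flip test), the smallest it can give, so it could not pass. Same-numbered libraries did not deviate together, and they share only a number.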
